A study of Mus musculus with 8 samples.

Results

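MHC class II molecules are surface receptors that show peptides from endosomes to CD4 T cells, and the genes described here are those of the class II chains and of the proteins that load them. The set holds 9 genes, *H2-Eb1*, *H2-Ab1*, *H2-Aa*, *Cd74*, *Ciita*, *H2-DMa*, *H2-DMb1*, *H2-Oa* and *H2-Ob*, and every probe set annotated to exactly 1 of these symbols was taken. That gave 16 of the 45037 probe sets on the array that are not controls, for 8 of the 9 genes, and all 16 passed the filter on low values. The filter lay at a mean log2 value of 6.39. *H2-Ob* (6.49), *Ciita* 1447075_at (6.61) and *H2-Aa* 1443783_x_at (6.80) had means only a little above it. *H2-DMb1* had no probe set of its own, because both probe sets that name it also name another gene, and it has no values here. The set was picked from measured values: *H2-Eb1* had one of the largest spreads over the arrays, low in 1 control-diet array, so that spread is given as a description and was not tested.

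RNA came from whole skin of the back of Hos:HR-1 mice, which are hairless, all female and 21 weeks old at sampling. From 9 weeks of age and for 12 weeks, control mice ate AIN-93G, a purified rodent diet, and collagen-diet mice ate the same feed with 2.0% by weight of a hydrolysate of collagen from fish scales, a mixture of short collagen peptides. Each diet group of the study had 8 mice, and 4 of each diet are on arrays, called biological replicates in the labels. Mice were kept 4 to a cage, and the labels give neither the cage nor the MHC haplotype of any mouse. Whole skin was used, so for every gene fewer cells of a type and less RNA per cell cannot be told apart. The values also do not separate the amount of RNA from how well the probes match the sequence of a mouse, and this was not tested, since neither probe sequences nor haplotypes were used here. Skin markers such as *Krt5*, a keratin of basal keratinocytes, and *Krt10*, a keratin of the layers above, stood at means of 13.06 and 14.07 on the deposited log2 scale, whose values run from 5.34 to 14.27.

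In a class II molecule an alpha chain pairs with a beta chain. The A molecule is made of the *H2-Aa* and *H2-Ab1* chains, and the beta chain of the E molecule is *H2-Eb1*. Whether the mice measured make the E molecule is not given by the labels. The invariant chain *Cd74* holds new molecules until they reach the endosome. DM (*H2-DMa* with *H2-DMb1*) then exchanges the remnant of that chain for a peptide, and DO (*H2-Oa* with *H2-Ob*) restrains DM. The coactivator *Ciita* switches on the genes of the A and E chains, of *Cd74* and of DM. In skin the main carriers of class II are Langerhans cells of the epidermis and dendritic cells and macrophages of the dermis. The classical chains are among the most polymorphic genes known in mice.

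*Ciita* acts through factors bound to short boxes upstream of class II genes, named X and Y. The stretches below are the 250 bases before the start site from RefSeq (GRCm38.p6, the C57BL/6J reference, not the mice measured), 5′ to 3′ on the strand of the gene. They are shown for *H2-Eb1* and *H2-Aa*, which hold the most widely spread member probe sets, and for *H2-Ob* and *H2-Oa*, the DO chains. Capitals mark the core of the Y box, TGATTGG, and a core of the X box, AACNNATG, searched on both strands.
H2-Eb1 (chr17:34305617-34305866, + strand): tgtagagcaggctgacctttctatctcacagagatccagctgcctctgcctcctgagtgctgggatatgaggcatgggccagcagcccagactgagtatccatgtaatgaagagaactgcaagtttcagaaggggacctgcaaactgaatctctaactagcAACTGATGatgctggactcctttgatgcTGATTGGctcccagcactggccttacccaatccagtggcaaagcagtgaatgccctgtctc
H2-Aa (chr17:34287824-34288073, - strand): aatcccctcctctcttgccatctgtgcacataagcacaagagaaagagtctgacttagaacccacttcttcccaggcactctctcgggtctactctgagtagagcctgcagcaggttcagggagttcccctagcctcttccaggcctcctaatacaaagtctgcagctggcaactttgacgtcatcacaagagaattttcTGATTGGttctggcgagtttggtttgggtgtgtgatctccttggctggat
H2-Ob (chr17:34238655-34238904, + strand): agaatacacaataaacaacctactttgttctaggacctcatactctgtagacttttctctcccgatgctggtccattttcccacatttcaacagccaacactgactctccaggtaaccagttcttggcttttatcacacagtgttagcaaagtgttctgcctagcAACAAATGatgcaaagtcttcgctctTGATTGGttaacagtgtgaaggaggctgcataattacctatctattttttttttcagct
H2-Oa (chr17:34092129-34092378, + strand): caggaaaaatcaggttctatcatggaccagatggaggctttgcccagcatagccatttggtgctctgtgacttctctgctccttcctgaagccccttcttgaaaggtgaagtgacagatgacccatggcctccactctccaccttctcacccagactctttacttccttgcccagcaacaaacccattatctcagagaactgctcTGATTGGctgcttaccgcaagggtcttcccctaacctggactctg
The Y core ended between 38 and 56 bases before the start site in these 4 windows and in that of *H2-DMb1*, always on the strand of the gene. It occurs in 7.23% of the 32851 windows of the same length in the table. The X core was found in *H2-Eb1*, *H2-Ob* and *H2-DMb1*, each time upstream of the Y core, against 7.71% of all windows, and 218 windows in all (0.664%) hold both. The strings do not overlap each other in these windows. The 2 windows of *H2-DMa* held neither string. Only these letters were searched, so a window without a string, as *H2-Aa* and *H2-Oa* for the X core, is not shown to lack the box. The table gave windows for 6 of the 9 genes, and the letters searched were chosen with these sequences in view, so the matches are a description.

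The deposited values differ very little from array to array, with a median SD of 8.66 millionths of a log2 unit over all probe sets, and the method of summarization was not given in the sources used here. They show direction and spread but no fold change of RNA, and levels of different probe sets were not compared. Small differences are therefore given in thousandths or millionths of a log2 unit, as the deviation of an array from the probe set's mean over all 8 arrays. A difference between the diets is collagen minus control diet, also given in SD units, that is, divided by the pooled SD within the diets. Control replicate 4 and collagen replicate 1 stood apart from the other arrays in skeletal muscle genes, with mean deviations of -1.28 and -1.41 SD over 20 genes against 0.19 to 0.83 in the other 6. Between the diets 19 of these 20 genes were higher and 1 lower (median 0.19 SD), none passing. No probe set passed the diet test over the whole array.

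*H2-Eb1*, the E beta chain (probe set 1417025_at), was measured at 9.24, 7.98, 9.11 and 9.10 in control replicates 1 to 4 and at 9.03, 9.23, 9.17 and 9.02 in collagen replicates 1 to 4, in deposited log2 values. Control replicate 2 lay 1.03 below the next lowest array, whereas the other 7 arrays spanned only 0.23. The SD over the 8 arrays, 0.414, ranked 2 among 45037 probe sets. Above it was a probe set of *Myh2* (0.490), a myosin of skeletal muscle. Next below was a probe set that names both *H2-Q5* and *H2-K1* (0.303), MHC genes within 2 Mb of *H2-Eb1* on the reference. The control mean was 8.86 ± 0.588 (SD, n = 4) and the collagen mean 9.11 ± 0.107 (SD, n = 4). The groups overlapped, and the difference of 0.25 ± 0.28 (SE) became -0.38 SD without control replicate 2, from 0.60 SD with it.

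**Figure D1:**
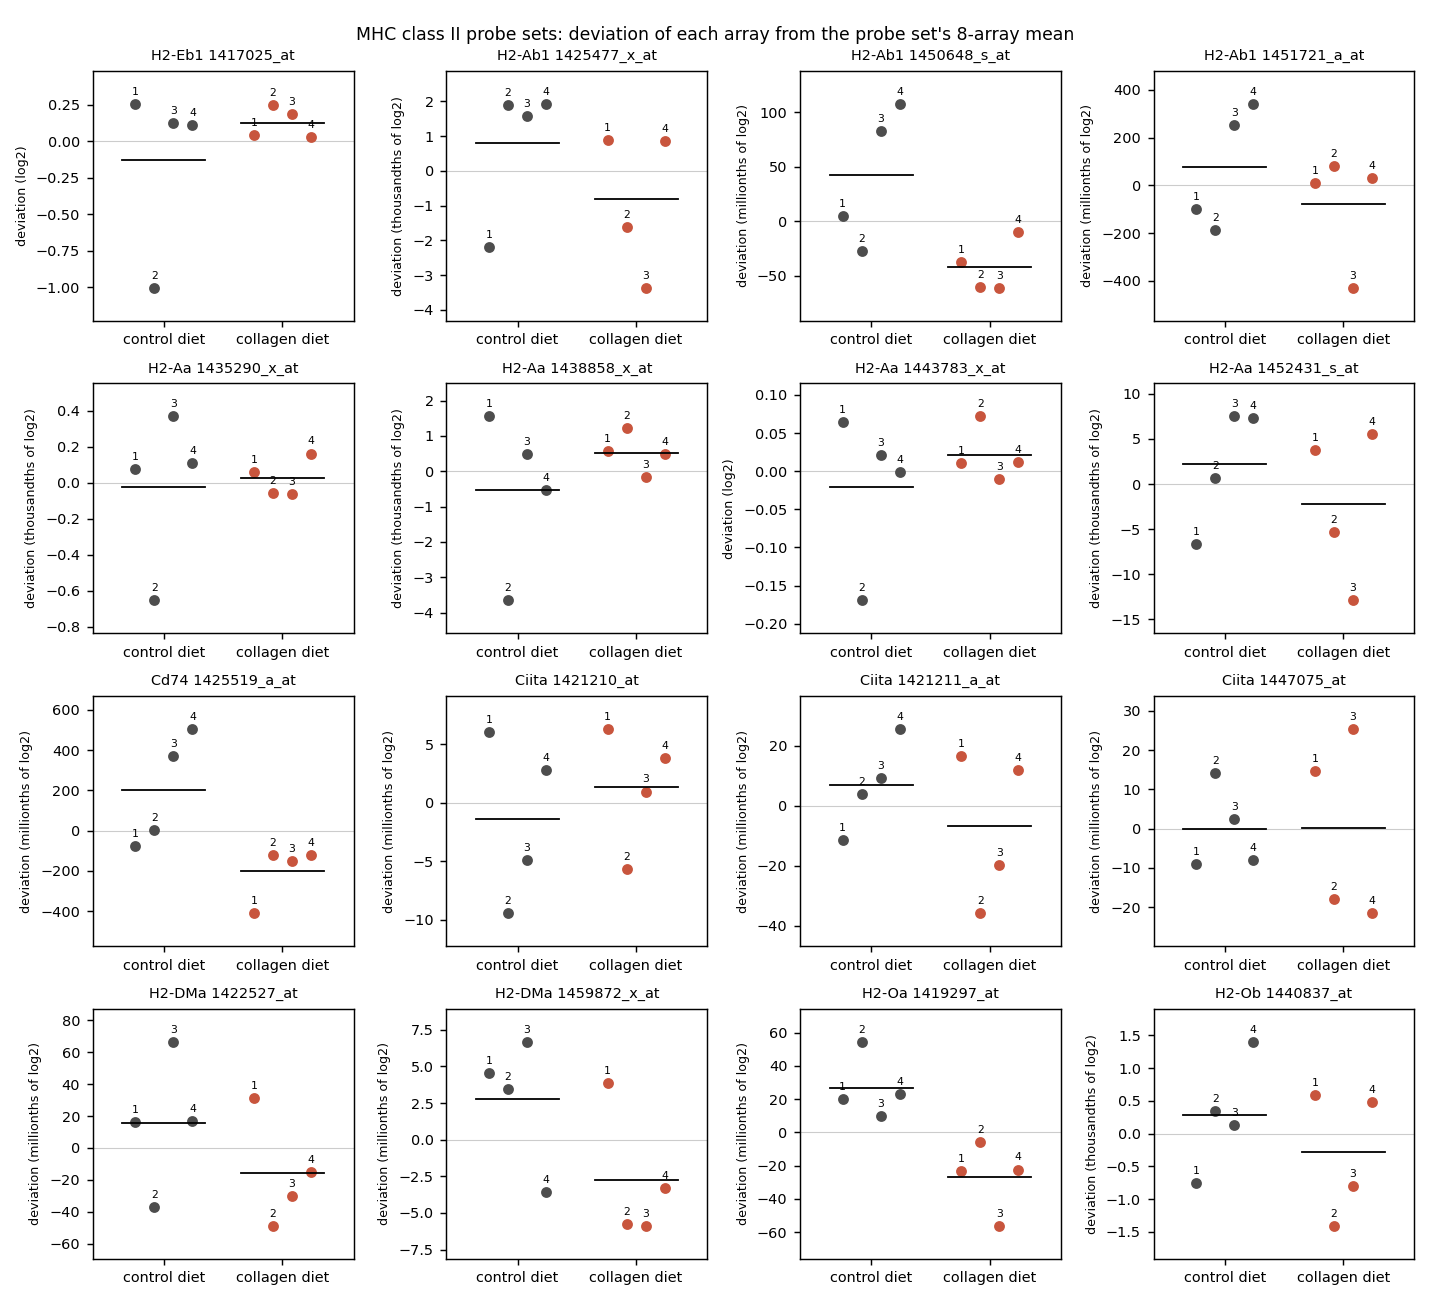
Deviation of each array (points, numbered by replicate) from the mean over 8 arrays of each of the 16 class II probe sets, in log2, thousandths or millionths of log2 as each axis says, for the control diet (grey) and the collagen diet (red), with diet means as black lines. Control replicate 2 is far below the rest in *H2-Eb1* and in 3 probe sets of *H2-Aa*, and the diets separate in *Cd74* and *H2-Oa*.

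The A alpha chain *H2-Aa* has 4 probe sets, and they did not follow 1 pattern. Probe set 1443783_x_at read 6.87, 6.63, 6.82 and 6.80 in control replicates 1 to 4 and 6.81, 6.88, 6.79 and 6.82 in collagen replicates 1 to 4. Control replicate 2 was again the lowest array, at -0.17 from the mean against -0.01 to 0.07 in the others. Probe set 1438858_x_at deviated by 1.56, -3.66, 0.50 and -0.52 thousandths in the control arrays and by 0.58, 1.22, -0.17 and 0.48 thousandths in the collagen arrays. Probe set 1435290_x_at deviated by 74.2, -654, 369 and 109 millionths in the control arrays and by 59.9, -58.5, -62.0 and 163 millionths in the collagen arrays. In both, control replicate 2 was the lowest array and lay apart from all others.

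The remaining *H2-Aa* probe set, 1452431_s_at, did not share this. It deviated by -6.63, 0.68, 7.51 and 7.34 thousandths in the control arrays and by 3.81, -5.34, -12.9 and 5.55 thousandths in the collagen arrays. Control replicate 2 lay in the middle, and the low arrays were control replicate 1 and collagen replicates 2 and 3. Each diet group thus holds arrays from both ends, and the groups overlapped in all 4 probe sets, with differences between -0.58 and 0.65 SD. None passed (limma adjusted p = 1.00 for each, over 31526 probe sets). The suffix _x_at marks probe sets with probes that can bind other sequences, and _s_at those that match more than 1 transcript, and probe sequences were not used here.

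The A beta chain *H2-Ab1* has 3 probe sets, and none of them was lowest in control replicate 2. Probe set 1425477_x_at deviated by -2.19, 1.90, 1.57 and 1.94 thousandths in the control arrays and by 0.89, -1.60, -3.36 and 0.86 thousandths in the collagen arrays. Its low arrays were the same 3 as in *H2-Aa* 1452431_s_at, and all 3 lay below 0 while the other 5 lay above. Probe set 1451721_a_at deviated by -99.3, -187, 251 and 341 millionths in the control arrays and by 9.68, 82.4, -429 and 30.8 millionths in the collagen arrays, with collagen replicate 3 alone at the bottom.

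Probe set 1450648_s_at of *H2-Ab1* deviated by 4.83, -26.9, 82.7 and 107.7 millionths in the control arrays and by -37.6, -59.8, -60.9 and -10.0 millionths in the collagen arrays. Control replicates 3 and 4 were the highest arrays, and only control replicate 2 fell among the collagen arrays. The difference was -84.2 ± 32.2 millionths (SE, n = 4 per diet) or -1.75 SD, and it did not pass (limma adjusted p = 0.872). After quantile normalization it was 0.71 SD. The other 2 probe sets differed by -0.79 and -0.62 SD, both with an adjusted p of 1.00 in limma.

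The order of the arrays set by the 3 low ones recurred in other members. The 3 lowest arrays were control replicate 1 and collagen replicates 2 and 3 in 4 of the 16 member probe sets, the one of *H2-Aa* that defined the order included, against 1.5% of all 31526 probe sets above the filter. Besides the probe sets of *H2-Aa* and *H2-Ab1* just described, these were *H2-Ob* 1440837_at and *Ciita* 1421211_a_at. *H2-Eb1* had the same 3 arrays as its highest, which 0.504% of all probe sets did. The comparison of these orders was chosen after the values were seen. Of these arrays 2 were on the collagen diet and 1 on the control diet. The 4 member probe sets lowest in them had lower collagen means, with differences from -0.79 to -0.58 SD. The part of this order in those differences was not tested.

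**Figure D2:**
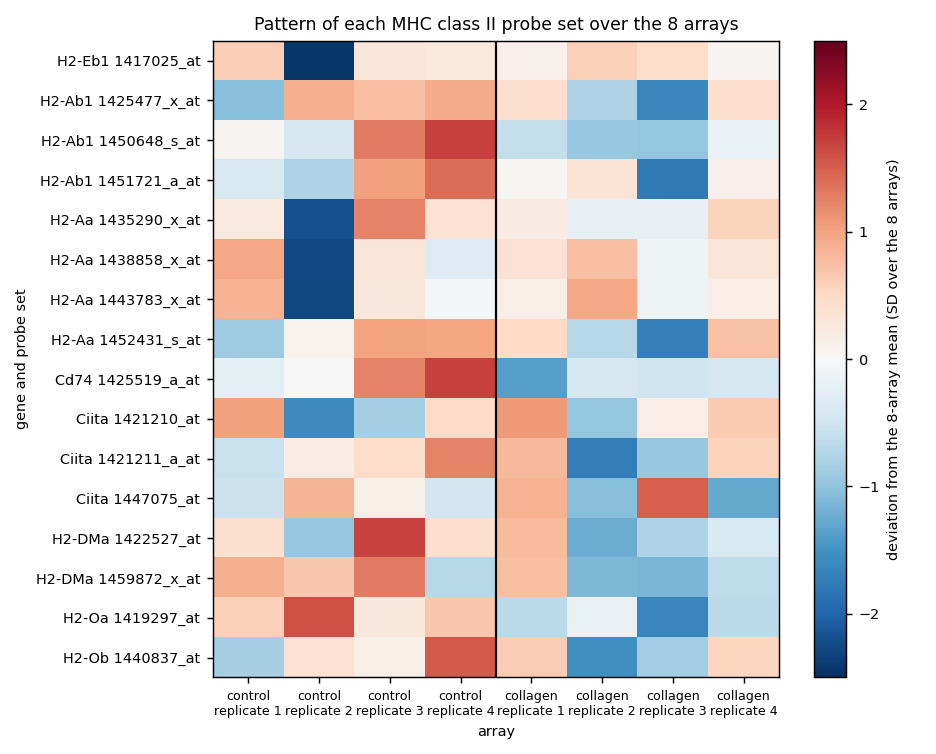
Each row is a class II probe set and each column an array, control diet to the left of the line and collagen diet to the right, coloured by the deviation from the 8-array mean in SDs over the 8 arrays (blue low, red high). Control replicate 2 is the darkest blue in *H2-Eb1* and 3 *H2-Aa* rows, while control replicate 1 and collagen replicates 2 and 3 are blue in *H2-Ab1* 1425477_x_at, *H2-Aa* 1452431_s_at, *Ciita* 1421211_a_at and *H2-Ob*.

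Control replicate 2 was the lowest array in 5 of the 16 member probe sets (31.2%), against 11.5% of all probe sets above the filter. Of the 15 probe sets other than that of *H2-Eb1*, 4 were lowest there, 3 of *H2-Aa* and *Ciita* 1421210_at. Of the rest, *H2-Oa* had its highest value in that array. The low reading was therefore not shared by all class II genes, and it was not tested, since the array was chosen from *H2-Eb1*. Markers of class II carrying cells in control replicate 2 had mean deviations of -0.30 SD for Langerhans cells (8 genes), -0.46 SD for dendritic cells (14 genes), -0.11 SD for macrophages (19 genes) and -0.55 SD for B cells (6 genes). Pan-leukocyte markers (11 genes) stood at -0.78 SD and class I presentation genes (18 genes) at -0.61 SD, while T cell markers stood at 0.55 SD. Control replicate 2 was the lowest of the 8 arrays in the pan-leukocyte, class I and dendritic cell lists, and another array was lower in the Langerhans cell, macrophage and B cell lists. Their part in the low *H2-Eb1* value was not tested.

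The 10 genes that are no member and were most like *H2-Eb1* over the 8 arrays, by the highest Pearson's r of any of their probe sets and with no p because they were picked as the most alike, were *Rps28*, *D17H6S56E-5*, *Cdc25a*, *Derl1*, *Rab18*, *Vcl*, *Etv6*, *Entpd1*, *Map3k7* and *Patl1*, with r from 0.959 to 0.937. Each had its lowest value in control replicate 2, but r does not depend on the size of the deviations. That array deviated by -1003088 millionths in *H2-Eb1* and by -23302 millionths in *D17H6S56E-5*. In the other 9 genes it deviated by only -15.2 (*Patl1*) to -563 millionths (*Vcl*). Among the members, *H2-Aa* 1443783_x_at (r = 0.953) and 1438858_x_at (r = 0.933) were about as alike. *D17H6S56E-5* (1417822_at) had a Spearman rho of 0.952 and still an r of 0.894 without control replicate 2, while r without that array lay between 0.136 and 0.727 for the other 9. *Rps28*, a ribosomal protein gene, and *D17H6S56E-5* are also the 2 of the 10 that lie within 2 Mb of *H2-Eb1* on the reference, where 0.879% of the probe sets with a known place lie. *D17H6S56E-5* read 7.746, 7.714, 7.742 and 7.740 in control replicates 1 to 4 and 7.732, 7.743, 7.743 and 7.735 in collagen replicates 1 to 4. Its lowest array and its 3 highest arrays were those of *H2-Eb1*.

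Within 2 Mb of *H2-Eb1* on the reference member probe sets had a larger median SD in the deposited values than their neighbours. The size of an SD also differs widely between probe sets of 1 gene, as the 4 of *H2-Aa* ran from 0.000297 to 0.0745. These SDs therefore do not show that the RNA of some genes varied more than that of others. The median SD was 607 millionths for the 12 member probe sets there, 22.7 millionths for 217 probe sets of 132 other genes there, and 14.9 millionths for 25831 probe sets placed elsewhere. Without *H2-Eb1* it was 297 millionths for the other 11 member probe sets, of which 1 had an SD above 0.01. With *H2-Eb1*, an SD above 0.01 was found in 2 of the 12, in 1.38% of the neighbours and in 0.674% of those elsewhere, against 0.625% of all probe sets above the filter. As *H2-Eb1* was chosen for its spread, no test was made. Only probe sets of 1 gene were counted here. This leaves out the probe set of both *H2-Q5* and *H2-K1* (SD 0.303), genes that also lie within 2 Mb. The neighbours were lowest in control replicate 2 in 19.4% of cases, against 11.7% elsewhere, and had the 3 low arrays of *H2-Aa* 1452431_s_at as their lowest in 3.23%, against 1.54% elsewhere.

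**Figure D3:**
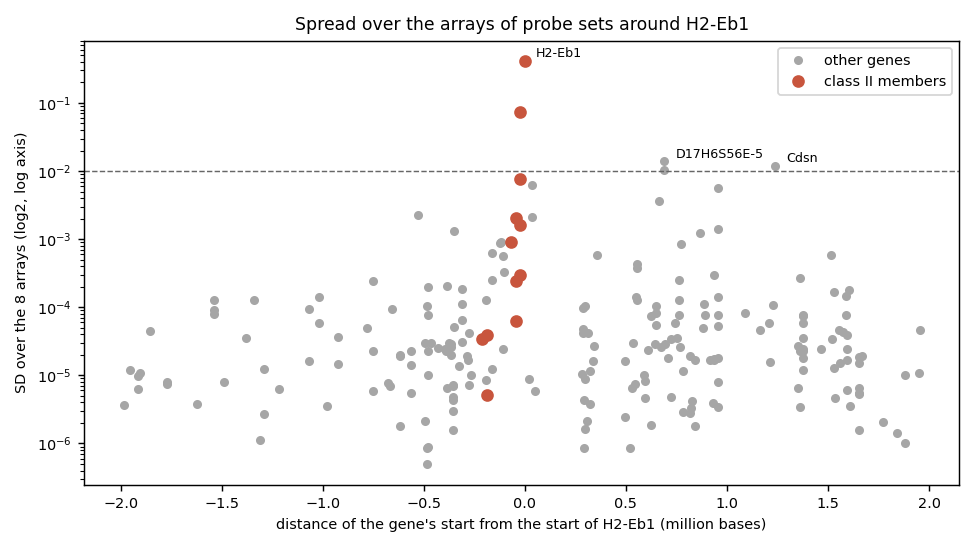
Each point is a probe set of 1 gene within 2 Mb of the start of *H2-Eb1* on the reference, plotted by distance and by its SD over the 8 arrays on a log axis, class II members in red and other genes in grey. *H2-Eb1* stands far above the other points, and 2 of the 12 members and 3 of the 217 neighbours lie above the dashed line at 0.01. The widely spread probe set of both *H2-Q5* and *H2-K1* names more than 1 gene and is not plotted.

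*H2-Ea*, the gene of the E alpha chain and a transcribed pseudogene in the reference annotation, is the partner of *H2-Eb1* and no member. Its probe set 1422892_s_at read 6.450, 6.468, 6.461 and 6.464 in control replicates 1 to 4 and 6.462, 6.452, 6.453 and 6.461 in collagen replicates 1 to 4. Control replicate 2 was the highest array, the reverse of *H2-Eb1*, and the 3 lowest were control replicate 1 and collagen replicates 2 and 3. The other class II genes of the region with a probe set tested, *H2-Ea* (leading probe set 1422891_at), *H2-DMb2* and *H2-Eb2*, differed between the diets by -0.40, -0.50 and 0.20 SD, and none passed (limma adjusted p = 1.00 for each).

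The invariant chain *Cd74* (1425519_a_at) was lower in all 4 collagen-diet arrays than in any control array. It deviated by -74.2, 4.03, 368 and 504 millionths in the control arrays and by -408, -123, -149 and -122 millionths in the collagen arrays. Control replicates 3 and 4 were high, and control replicate 1 and collagen replicates 2, 3 and 4 lay close to each other on both sides of the gap. The difference was -401 ± 148 millionths (SE, n = 4 per diet) or -1.82 SD, and it did not pass (limma adjusted p = 0.851, unadjusted p = 0.0317). After quantile normalization the difference was 0.71 SD and the groups overlapped. Control replicate 4, the highest array, and collagen replicate 1, the lowest, are the arrays with low skeletal muscle genes, and the part of this in the difference was not tested.

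*H2-Oa*, the alpha chain of DO (1419297_at), was the other member whose groups did not overlap. It deviated by 20.1, 54.5, 9.66 and 23.2 millionths in the control arrays and by -23.2, -5.79, -56.1 and -22.3 millionths in the collagen arrays. Every control array was above its mean and every collagen array below. The difference was -53.7 ± 13.7 millionths (SE, n = 4 per diet) or -2.66 SD, the most negative of the 16 member probe sets, and it did not pass (limma adjusted p = 0.637, unadjusted p = 0.00621). Quantile normalization left it at -0.44 SD and median centring at -0.49 SD, with overlapping groups, and it was between -3.15 and -2.49 SD with any 1 array left out.

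*H2-Ob*, the beta chain of DO (1440837_at), deviated by -0.76, 0.35, 0.14 and 1.40 thousandths in the control arrays and by 0.59, -1.41, -0.79 and 0.49 thousandths in the collagen arrays. The groups overlapped, and its difference of -0.60 SD did not pass (limma adjusted p = 1.00). The DM alpha chain *H2-DMa* has 2 probe sets. Probe set 1422527_at deviated by 16.1, -36.9, 66.5 and 16.8 millionths in the control arrays and by 31.3, -48.7, -30.0 and -15.2 millionths in the collagen arrays, and probe set 1459872_x_at ranged from -5.87 to 6.68 millionths in all. Both had overlapping groups, with differences of -0.81 and -1.22 SD that did not pass (limma adjusted p = 1.00 and 0.992).

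The coactivator *Ciita* was measured by 3 probe sets, and they had no common order of the arrays. Probe set 1421211_a_at deviated by -11.5, 3.80, 9.25 and 25.5 millionths in the control arrays and by 16.6, -35.8, -19.7 and 11.9 millionths in the collagen arrays, a difference of -0.65 SD. Probe set 1421210_at, between -9.43 and 6.31 millionths, differed by 0.44 SD, and 1447075_at, between -21.5 and 25.3 millionths, by 0.02 SD. The groups overlapped in all 3, and none passed (limma adjusted p = 1.00 for each).

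Over all 16 member probe sets, 10 had a lower mean on the collagen diet (62.5%), against 52.4% of all 31526 probe sets above the filter, and the median difference was -0.61 SD, against -0.04 SD over all. None passed limma's test at an adjusted p below 0.05, as 0.0% of all probe sets did. At an unadjusted p below 0.05 stood 3 (*H2-Oa*, *Cd74* and *H2-Ab1* 1450648_s_at), all lower, which is 18.8% against 5.58% of all probe sets. The groups did not overlap in 2 (12.5%) against 3.38% of all probe sets, both lower, where 2.42% of all probe sets had lower and 0.958% higher non-overlapping groups, and in 0 members after quantile normalization or median centring. Lower at an unadjusted p below 0.05 were 4.0% of all probe sets. Probe sets of 1 gene share its RNA, and members were chosen with earlier results known, so these shares are a description.

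**Figure D4:**
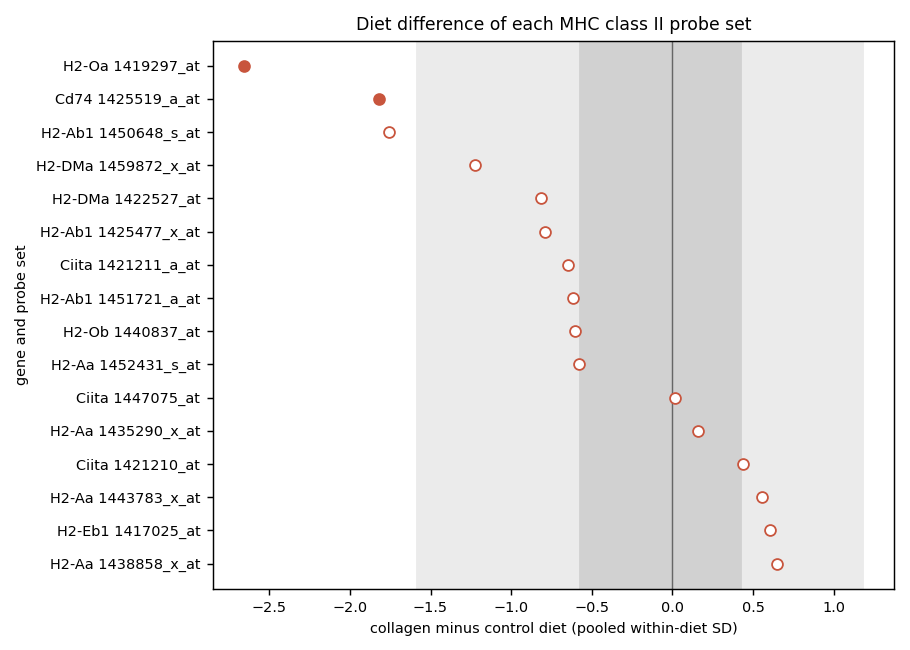
Difference between the diets of each class II probe set, collagen minus control, in pooled within-diet SDs. Filled points are those whose groups do not overlap, and the dark and light grey bands span the 25th to 75th and the 5th to 95th percentiles of all 31526 probe sets. *H2-Oa*, *Cd74* and *H2-Ab1* 1450648_s_at lie to the left of the light band.

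Genes that act with the members were read from 1 probe set each, the one with the highest mean. Of 15 factors of the class II promoter and of the signals that induce *Ciita*, 10 were lower and 5 higher (median -0.14 SD, against -0.05 SD over all 14645 genes), and none passed (limma, smallest adjusted p = 0.886). *Rfxap* and *Rfx5*, subunits of the factor that binds the X box, differed by -1.76 and -0.11 SD, *Nfyb*, a subunit of the factor that binds the Y box, by -0.92 SD and *Irf1*, an interferon-induced transcription factor that acts on *Ciita*, by -0.61 SD. Of 11 genes of endosomal antigen processing 5 were higher and 6 lower (median -0.01 SD), none passing. *Ctss*, the protease that trims the invariant chain, differed by 0.94 SD, *Ctsd*, another endosomal protease, by -1.03 SD, *Ifi30*, which reduces disulfide bonds of antigens, by -0.25 SD and *Marchf8*, a ubiquitin ligase that takes class II from the surface, by 1.29 SD. Of 7 costimulatory ligands 3 were higher and 4 lower, with *Cd86* at -1.23 SD and *Cd80* at -0.54 SD, and none passed.

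Class I presentation, which shows peptides from the cytosol to CD8 T cells, had 7 of 18 genes higher and 11 lower (median -0.31 SD), none passing (limma, smallest adjusted p = 0.887). *Tap2*, a subunit of the peptide transporter and a neighbour of the class II genes, had non-overlapping groups at -1.64 SD. Of all 14645 genes, 333 were likewise lower without overlap. *Tapbpl*, a relative of the loading factor tapasin, differed by -2.14 SD, and *B2m*, the shared light chain, by 0.46 SD. Control replicate 2 was the lowest array in 6 of these 18 genes (33.3%), against 12.3% of all 14645 genes.

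No gene passed in the marker lists of cells that carry class II or of leukocytes at large (limma, smallest adjusted p = 0.768). Langerhans cell markers had 4 genes higher and 4 lower (median -0.03 SD), with *Cd207*, their defining lectin langerin, at -0.59 SD, *Epcam*, also made by other epithelial cells, at -1.20 SD and *Mfge8* at 1.56 SD. Dendritic cell markers had 7 higher and 7 lower (median -0.14 SD), with *Itgax*, the integrin CD11c, at 0.83 SD, *Clec10a* at -1.23 SD and *Clec4a2* at 0.94 SD. Macrophage markers had 14 higher and 5 lower (median 0.26 SD), of which 2 higher and 1 lower stood at a limma unadjusted p below 0.05. Of all 14645 genes, 174 were higher and 522 lower at that p. The lysozymes *Lyz2* and *Lyz1* were higher at 2.15 and 2.08 SD. *Lyz1* was read by an _x_at probe set, so these may not be separate readings. The groups of *Lyz2* did not overlap, and 113 of all 14645 genes were likewise higher without overlap. *Csf1r*, the receptor for the growth factor of macrophages, differed by -0.50 SD and *Adgre1*, the F4/80 antigen, by 0.40 SD. B cell markers had 5 higher and 1 lower of the 6 that passed the filter out of 11 with a probe set (median 0.31 SD), *Cd22* at 0.70 SD and *Ebf1* at -0.98 SD. Pan-leukocyte markers had 7 higher and 4 lower (median 0.17 SD), with the integrin *Itgb2* at 2.00 SD and the transcription factor *Spi1* at -0.92 SD.

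T cell markers, not limited to the CD4 T cells that read class II, were tested in 9 of 11 genes with a probe set. All 9 had lower means on the collagen diet (median -0.98 SD), where 7739 of all 14645 genes were lower. None passed (limma, smallest adjusted p = 0.858). *Cd3d*, a chain of the T cell receptor complex, had non-overlapping groups at -1.80 SD, or -79.7 millionths. Lower groups without overlap were found in 333 of all 14645 genes. *Cd247* of the same complex differed by -1.36 SD and *Cd3e* by -0.47 SD. The list is given only as deposited, while array medians differ by up to 369 millionths. The mean deviation of the list ran from 0.18 to 0.75 SD in the control arrays and from -1.22 to 0.44 SD in the collagen arrays, and its summed log2 level from 68.2263 to 68.2265 and from 68.2256 to 68.2264. The 8 members, 1 probe set each, ran from -0.33 to 1.18 SD and from -0.88 to -0.07 SD. In the members the highest arrays were control replicates 4 and 3, and in the T cell list control replicates 3 and 2. The part of T cell number in the lower values of *Cd74* and *H2-Oa* was not tested.

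**Figure D5:**
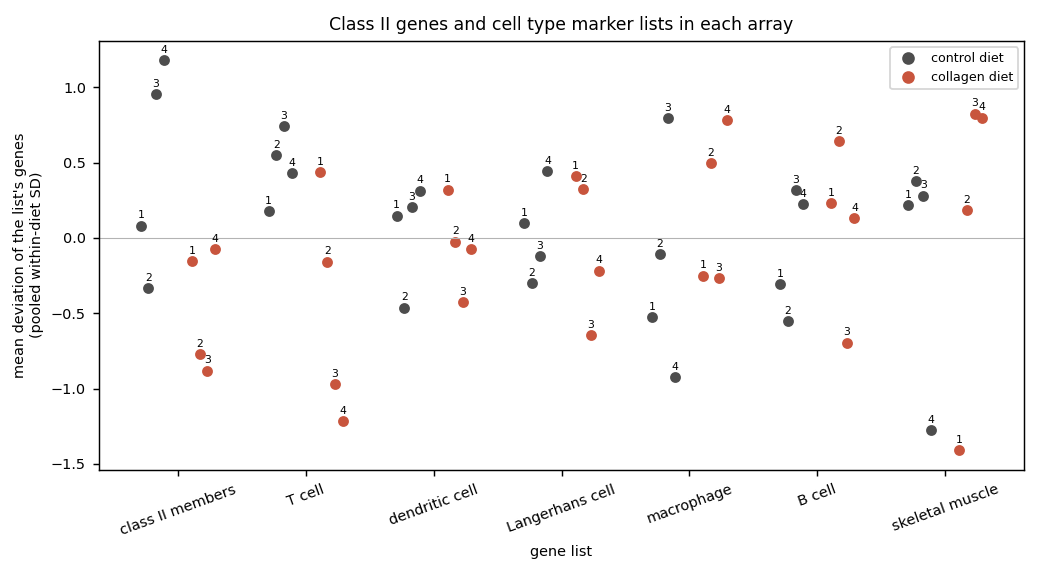
Mean deviation of the genes of each list from their 8-array means, in pooled within-diet SDs, for each array (points, numbered by replicate), control diet in grey and collagen diet in red. The class II members are highest in control replicates 3 and 4, the T cell list is lowest in collagen replicates 3 and 4, and the skeletal muscle list is low in control replicate 4 and collagen replicate 1.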

How the data were processed

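Per the labels' protocols, frozen dorsal skin was powdered, total RNA extracted, and 200 ng of it turned into biotinylated RNA with a 3′ IVT kit for oligonucleotide arrays. The values deposited by the authors are on a log2 scale, which was judged from their range. R 2.7.2 is named in the submitters' processing notes. How probes were summarized and arrays normalized was not given in the sources used here. Genes come from the platform annotation, which can be old.

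Members were all probe sets annotated to exactly 1 of the 9 symbols. Members and gene lists were chosen with earlier results of these data known. A linear model with diet as its term was fitted in limma 3.58.1 under R 4.3.3 (moderated variances with a trend on intensity, two-sided tests, Benjamini-Hochberg adjustment over all fitted probe sets, threshold 0.05) to the 31526 probe sets left of 45037 once the lowest 30% by mean were set aside, with 64 control probe sets left out from the start. The fit, tested on simulated data, had 6 residual degrees of freedom. Background signals were not used here, the number of arrays limits the precision, and p-values measure the spread between these mice. Whether mice of a diet shared a cage is not given, so cage cannot be told apart from diet.

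The text names all member probe sets, the 10 genes most like *H2-Eb1* with clones and predicted genes skipped, and from each list of associated genes the 2 with the smallest p plus *Ctss*, *Ifi30*, *B2m*, *Irf1*, *Rfx5*, *Cd207*, *Itgax*, *Csf1r*, *Adgre1*, *Cd79a* and *Cd3e* where above the filter, and a further gene that is not reported here. Alternatives were other filters and normalizations, other variance models, weights per array, a replicate block, leaving out each array, and, chosen after seeing the data, leaving out the 2 arrays low in skeletal muscle genes. Same-numbered arrays did not deviate together (r between -0.04 and 0.13 over probe sets).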

Additional observations from a re-analysis of the deposited data

Results flagged for a closer look

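In groups of 4 arrays, 1 array of a diet lay far from the other 3 in 3 of 30 groups looked at, where chance flags about 1 in 20. Probe sets of 1 gene share their RNA and arrays, so these groups are not independent, and *H2-Eb1* was left out because it was chosen for its low array. In *H2-Ab1* 1425477_x_at, control replicate 1 was low, and its gap to the next array took 0.912 of the range of the control arrays, above Dixon's 95% critical value for 4 arrays. In *H2-Ab1* 1451721_a_at, collagen replicate 3 was low with a share of 0.858. In *Cd74* 1425519_a_at, collagen replicate 1 was low among the collagen arrays with a share of 0.906, and it is also an array low in skeletal muscle genes.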

How the results depend on the processing

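Member probe sets passing the diet test numbered 0 under every alternative run, an adjusted p below 0.10 included, and the smallest adjusted p of a member in limma over the normalizations, the block and the left-out arrays was 0.557. Over all probe sets the count of calls was 0 as reported and 0 with the replicate block, and 1 after quantile normalization, median centring and without collagen replicate 1, so it ran from 0 to 1 with an array left out. Non-overlapping members numbered 2 as reported, 0 after quantile normalization and 0 after median centring, where array medians that differ by up to 369 millionths are aligned and 63.2% and 89.1% of all probe sets are lower, and 2 to 3 with an array left out. Members lowest in the array where *H2-Eb1* is lowest numbered 3 after quantile normalization and 2 to 6 with an array left out, the 2 being without control replicate 2, when another array takes that place. The share of all probe sets in the same setting is not given beside these counts or the non-overlap counts with an array left out. Groups of fewer arrays separate more often, so those counts were not read against the full design. Directions turned after quantile normalization in *H2-Ab1* 1450648_s_at (0.71 SD), *Cd74* (0.71 SD) and *Ciita* 1421210_at (-0.0487 SD), and after median centring in *Ciita* 1421210_at (-0.13 SD) and 1447075_at (-0.15 SD), and the cause was not tested. Leaving out both arrays with low muscle genes, an alternative chosen after seeing the data, *Ciita* 1447075_at turned (-0.36 SD) and 3 members did not overlap, as did 10.4% of all probe sets. With an array left out, *H2-Eb1* ran from -0.38 to 0.92 SD, *H2-Aa* 1435290_x_at from -1.20 to 0.64 SD and 1443783_x_at from -0.20 to 1.00 SD, each turning only without control replicate 2, and *Ciita* 1447075_at from -0.53 to 0.45 SD, while the other 12 kept their direction. The replicate block turned no member. The 4 arrays of a diet and the absence of signal over background limit what can be seen.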
